A study of Homo sapiens with 6 samples.

Results

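The genes described here are the 3 members of the IMP family of RNA-binding proteins, IGF2BP1, IGF2BP2 and IGF2BP3, together with LIN28B and HMGA2. They were chosen by name, and every probe set that the platform annotation gives to them was taken, which made 19 probe sets for 5 genes out of 54613 probe sets and 19775 named genes. IGF2BP1 had 3 probe sets, IGF2BP2 had 2, IGF2BP3 had 4, LIN28B had 1 and HMGA2 had 9. The 4 probe sets of IGF2BP2-AS1 and the 1 of LIN28B-AS1, antisense genes of other names, were not counted.

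Total RNA came from a human kidney cell line that the labels do not name, and each sample was read on its own 1-colour array. The groups were cells transfected with an empty vector (mock), with the construct hIMP1 wt, or with the construct hIMP1 Dmut, and each group had 2 arrays. The labels do not say what Dmut alters, which vector or promoter was used, how long after transfection RNA was taken, or whether the arrays of a group came from separate cultures, so each p-value measures the spread between arrays, and that spread may be only technical. The sample titles give each array of a group the number 1 or 2, and do not say what the number stands for.

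IMP proteins bind selected mRNAs through RNA recognition motifs and KH domains, and keep them in cytoplasmic granules where their stability, position and translation are controlled. IGF2BP1 and IGF2BP3 are oncofetal genes: they are active in the embryo, silent in most adult tissues and active again in many tumours, while IGF2BP2 is also expressed in adult tissues. LIN28B is an RNA-binding protein that blocks the maturation of the let-7 family of microRNAs. HMGA2 is a chromatin protein of the embryo that binds AT-rich DNA, and its mRNA is a classical let-7 target. The IMP mRNAs and the LIN28B mRNA are let-7 targets too, so the 5 genes are often described as a circuit in which let-7 lowers all of them and LIN28B lowers let-7.

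The let-7 microRNAs are shown because their seed, bases 2 to 8, is what links the 5 mRNAs. All 9 mature 5p names of the family in RefSeq (GRCh38.p14), from 12 loci, carry the same seed. It stands in capitals in these examples, written 5′ to 3′; let-7d differs from the others shown at its first base, outside the seed. The let-7d locus is at chr9:94178841-94178862 on the plus strand, let-7i at chr12:62603691-62603712 on the plus strand, and miR-98 at chrX:53556299-53556320 on the minus strand, while let-7a has loci on chromosomes 9, 11 and 22. No mature microRNA was measured in these data.
hsa-let-7a-5p: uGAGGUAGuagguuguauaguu
hsa-let-7d-5p: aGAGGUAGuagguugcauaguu
hsa-let-7i-5p: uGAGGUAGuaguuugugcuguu
hsa-miR-98-5p: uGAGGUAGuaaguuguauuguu

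Array medians lay between 26.7 and 33.7 in intensity. A probe set was tested where its mean log2 value over the 6 arrays, taken after adding an offset of 9.05, was at or above 5.19, the median of all such means, and 27307 probe sets were. Among the kidney lineage markers, PAX8, SIX2, EYA1 and WT1 passed this filter and PAX2 and LHX1 did not. Of 5 markers of the mature nephron 2 passed, AQP2 and LRP2, at 6.2 to 58.2 and 30.7 to 50.4 in intensity, and NPHS1, which defines the podocyte, lay between 0.875 and 6.23. The neurofilament gene NEFL lay between 1080.4 and 1492. The summed level of the 6 kidney lineage markers was 507 to 543 with mock, 491 to 614 with hIMP1 wt and 586 to 664 with hIMP1 Dmut. In the same order it was 82.5 to 101, 69.9 to 126 and 127 to 154 for the mature nephron, and 75.9 to 110.1, 86.9 to 110.2 and 119 to 124 for 4 blood cell markers, of which 2 passed. On both lists the hIMP1 Dmut arrays were the highest by sum. Among the single markers of the mature nephron and blood lists only LRP2 was highest on both hIMP1 Dmut arrays, at 42.3 and 50.4, against at most 39.1 on the others. Among the kidney lineage markers only PAX8 was, at 205.9 and 287.31, against at most 202.46 on the others. EYA1 of that list had its lowest value, 40.4, on hIMP1 Dmut replicate 1. AQP2 was 21.3 on hIMP1 Dmut replicate 1, against 32.0 and 29.7 with mock. CD3E, a blood cell marker, was 30.1 on hIMP1 Dmut replicate 2, against 32.2 and 38.6 with mock. The sums overlapped for 5 epithelial markers, of which 4 passed (1843 to 1957, 1873 to 2057 and 1725 to 1952), and for 3 neuronal markers, of which NEFL and INA passed and NEFM did not (1358 to 1641, 1237 to 1646 and 1254 to 1537). Their part in the values below was not tested. In RNA of whole cultures, fewer cells of a kind and less RNA per cell cannot be told apart.

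Of the 19 probe sets 9 passed the filter, and each of the 5 genes had at least 1 of them. The dimmest of the 9 was 223963_s_at of IGF2BP2, at a mean log2 value of 6.4, and the brightest of the other 10 was 1569033_at of IGF2BP3, at 5. Intensities of different probe sets are not comparable as amounts of RNA, so groups are compared within a probe set. The 9 probe sets are described first, gene by gene.

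IGF2BP1, the gene whose product both constructs are named for, was read by 2 probe sets that passed. At 227377_at the intensity was 231 and 307 on the 2 mock arrays, 226 and 326 on the hIMP1 wt arrays, and 266 and 288 on the hIMP1 Dmut arrays, with number 1 first in each pair. The 3 groups overlapped, and number 2 was above number 1 in each of them. At 223689_at the values were 188 and 93.2 with mock, 253 and 137 with hIMP1 wt, and 248 and 150.5 with hIMP1 Dmut. Here number 2 was below number 1 in each group, the reverse of the other probe set, and both constructs were above mock when arrays of the same number were compared.

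IGF2BP2, the family member also found in adult tissues, gave 557 and 624 with mock, 466 and 775 with hIMP1 wt, and 544 and 535 with hIMP1 Dmut at 218847_at. The hIMP1 wt pair was the widest and spanned the other 4 arrays. At 223963_s_at the values were 73.5 and 60.8, 97.9 and 85.5, and 78.4 and 62.4 in the same order. There the hIMP1 wt arrays were the 2 highest of the 6.

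IGF2BP3, the member most often used as a tumour marker, had the 2 steadiest of the 9 probe sets. At 203820_s_at it gave 1229.6 and 1242 with mock, 1187 and 1279 with hIMP1 wt, and 1262 and 1347 with hIMP1 Dmut, so that the highest array was 1.13 times the lowest. At 203819_s_at the values were 677 and 775, 739.6 and 811, and 743 and 789, a span of 1.20 times. The third probe set, 216493_s_at, read 176 and 209.9, 223 and 212, and 215 and 129. Its lowest value, on hIMP1 Dmut replicate 2, was below the other 5 arrays, while that array gave the highest value of the 6 at 203820_s_at.

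LIN28B was read by 229349_at alone, at 1366 and 947 with mock, 1258 and 1183 with hIMP1 wt, and 1197 and 1019 with hIMP1 Dmut. The mock pair held both the highest and the lowest value, and number 1 was the higher array in every group. HMGA2 gave 1061 and 1249 with mock, 1069 and 1279 with hIMP1 wt, and 1054 and 1209.6 with hIMP1 Dmut at 208025_s_at. The 3 arrays of number 1 lay within 15 units of each other, and all 3 were below the arrays of number 2.

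**Figure D1:**
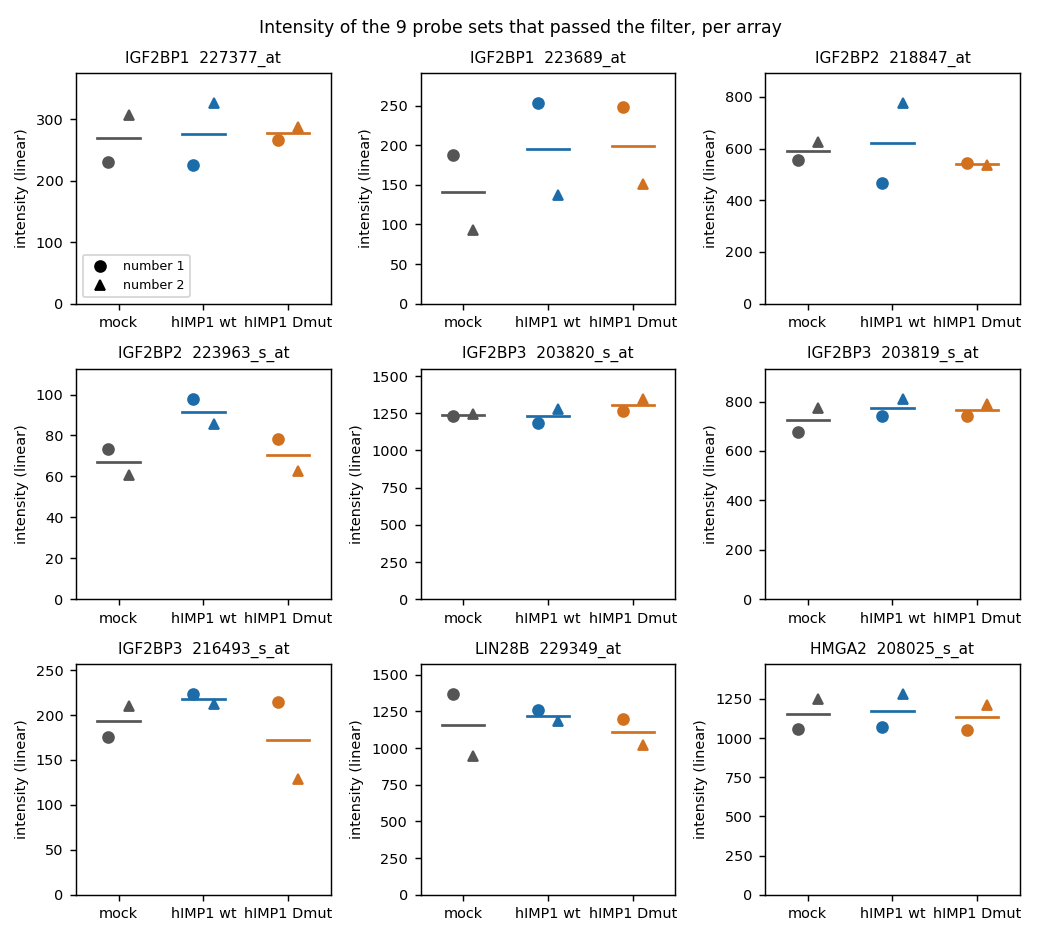
Intensity (linear, axes from 0) of the 9 probe sets that passed the filter, by group; circles are arrays of number 1, triangles arrays of number 2, and lines the mean of the 2 arrays of a group. At 223689_at of IGF2BP1 the triangles lie below the circles in every group (93.2 against 188 with mock), and at 227377_at above them (307 against 231).

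The other 10 probe sets were dim. IGF2BP1 had 1 of them, IGF2BP3 had 1 and HMGA2 had 8. All 48 values of the 8 HMGA2 probe sets were below the median of their own array, and 25 of them were below its lower quartile, with a range from 0.197 to 31.6 and a median of 9.14. At 208025_s_at, 1 of the 3 member probe sets listed with a RefSeq mRNA, HMGA2 was above the array median on every array. The parts of the transcript that these read are not given in the annotation used here. The dim probe set 241574_s_at of IGF2BP1 gave 32.9 and 4.16 with mock, 39.7 and 3.91 with hIMP1 wt, and 21.7 and 10 with hIMP1 Dmut, lower with number 2 in each group, as at 223689_at. The dim probe set 1569033_at of IGF2BP3 lay between 13.5 and 30.3.

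**Figure D2:**
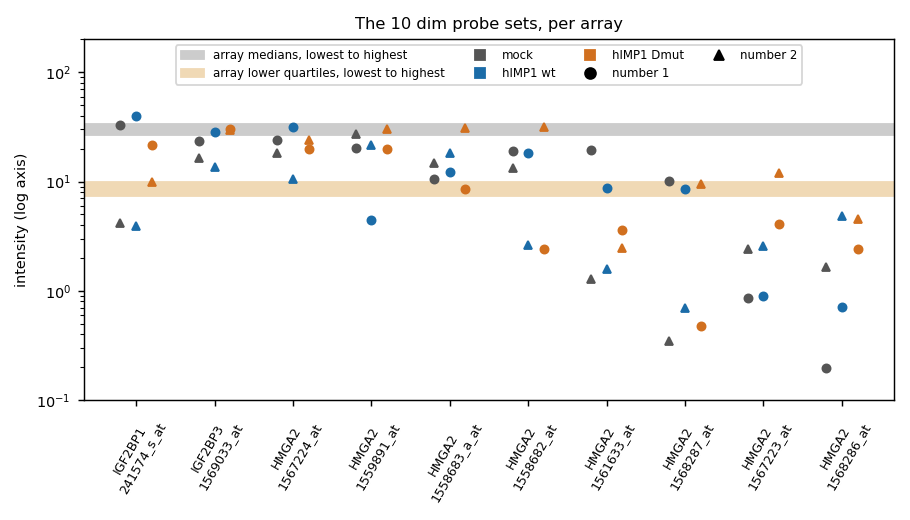
Intensity (log axis) of the 10 dim probe sets on each array, coloured by group, with circles for number 1 and triangles for number 2. Grey and tan bands span the medians (26.7 to 33.7) and lower quartiles (7.40 to 9.95) of the 6 arrays, and the 8 HMGA2 probe sets lie below their own array's median on all 6.

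The comparison of hIMP1 wt with mock asks whether cells given the wild-type construct differ in the mRNAs of these genes. None of the 9 probe sets passed an adjusted p of 0.05 (limma, Benjamini-Hochberg over 27307 probe sets; each adjusted p = 1), where 2 probe sets, or 0.00732% of all tested, did. At an unadjusted p under 0.05 there were also 0 of 9, against 1.03% of all, in this fit without the array numbers. With the array number as a block, 223689_at of IGF2BP1 had an unadjusted p of 0.0323 (limma) and was still not called. The log2 changes ran from -0.004 to 0.46 with a median of 0.10, against -0.011 over all tested probe sets. Of these 9 changes, from 5 genes, 8 were above 0, where 46.5% of all genes were by their brightest tested probe set. Arrays of the 2 groups did not overlap at 2 of 9 probe sets, 223963_s_at of IGF2BP2 and 216493_s_at of IGF2BP3, both higher with hIMP1 wt, against 21.3% of all tested.

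For IGF2BP1 the mean intensity at 227377_at was 269 ± 54.0 (SD, n = 2) with mock and 276 ± 71.0 with hIMP1 wt. Its log2 change was 0.03 with a 95% interval of -0.52 to 0.58, which spans a fold of 0.699 to 1.49. At 223689_at the means were 141 ± 67.1 and 195 ± 82.1, and the log2 change of 0.46 ± 0.39 (SE) had an interval of -0.41 to 1.32, or 0.754- to 2.5-fold. That change was 0.41 within the arrays of number 1 and 0.51 within those of number 2. It was -0.015 without mock replicate 2 and 0.93 without mock replicate 1, where the mock array that remains is set against both numbers of hIMP1 wt. The interval comes from the fit that leaves the array numbers out. The transfected construct adds to these signals only if it carries the part of the transcript that the probes read, which the files do not give.

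For the other genes the hIMP1 wt intervals were narrower than at 223689_at. IGF2BP2 had a log2 change of 0.41 ± 0.29 at 223963_s_at (interval -0.23 to 1.04) and of 0.03 ± 0.24 at its brighter probe set, where the change was -0.25 within the arrays of number 1 and 0.31 within those of number 2. IGF2BP3 had the narrowest interval, -0.37 to 0.36 around -0.004 at 203820_s_at, or 0.775- to 1.28-fold. LIN28B had a log2 change of 0.10 ± 0.21, which was -0.12 within number 1 and 0.32 within number 2. HMGA2 had 0.02 ± 0.18, with 0.01 and 0.03 within the 2 numbers.

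The comparison of hIMP1 Dmut with mock used the same mock arrays, so its values are not independent of the ones above. Of 9 probe sets 0 passed (limma, each adjusted p = 1), against 0.00732% of all tested, and 0 had an unadjusted p under 0.05, against 1.42% of all. With the array number as a block, 223689_at of IGF2BP1 had an unadjusted p of 0.0194 (limma) and was still not called. Changes ran from -0.20 to 0.51 with a median of 0.05, against 0.010 over all tested probe sets. Groups did not overlap at 2 of 9, with 203820_s_at of IGF2BP3 higher and 218847_at of IGF2BP2 lower with hIMP1 Dmut, against 23.6% of all.

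At 223689_at of IGF2BP1 the hIMP1 Dmut mean was 199 ± 68.7 and the log2 change 0.51 ± 0.39, with an interval of -0.36 to 1.38; it was 0.38 within number 1 and 0.64 within number 2, and 0.037 without mock replicate 2 and 0.98 without mock replicate 1. At 227377_at the mean was 277 ± 15.2 and the change 0.05 (interval -0.49 to 0.60). IGF2BP2 had changes of -0.13 ± 0.24 and 0.06 ± 0.29 at its 2 probe sets. IGF2BP3 had 0.08 ± 0.16 at 203820_s_at, 0.08 ± 0.18 at 203819_s_at and -0.20 ± 0.27 at 216493_s_at, and the last was 0.28 within number 1 and -0.67 within number 2. The intervals for LIN28B (-0.50 to 0.42) and HMGA2 (-0.44 to 0.38) took in 0, around changes of -0.04 and -0.03.

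The direct comparison of hIMP1 Dmut with hIMP1 wt asks whether the constructs differ from each other. No probe set of all those tested passed (limma, 0%), and of the 9 probe sets of these genes 0 had an unadjusted p under 0.05, against 1.23% of all. The largest difference was -0.37 ± 0.27 at 216493_s_at of IGF2BP3 (interval -0.97 to 0.23). It was -0.05 within number 1 and -0.68 within number 2, and it came to -0.017 when hIMP1 Dmut replicate 2 was left out and to -0.72 when replicate 1 of that group was. IGF2BP2 at 223963_s_at was next, at -0.35 ± 0.29 (interval -0.99 to 0.29), and was the only 1 of 9 whose arrays did not overlap, against 22% of all. IGF2BP1 differed by 0.05 ± 0.39 and 0.02 ± 0.25 at its 2 probe sets. LIN28B differed by -0.14 ± 0.21 and HMGA2 by -0.05 ± 0.18. A p that misses the threshold does not show that the constructs act alike: at 223689_at the interval ran from 0.569- to 1.89-fold. That interval comes from the fit that leaves the array numbers out. The log2 change there was -0.03 within number 1 and 0.13 within number 2.

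Ordered by group mean, IGF2BP1 ran from mock to hIMP1 wt to hIMP1 Dmut at both probe sets. LIN28B and HMGA2 ran from hIMP1 Dmut to mock to hIMP1 wt, with LIN28B at 1108 ± 126, 1157 ± 296 and 1220.4 ± 52.7 and HMGA2 at 1132 ± 110, 1155 ± 133 and 1174 ± 149. The same order held for 218847_at of IGF2BP2, at 539.8 ± 6.67, 591 ± 47.4 and 621 ± 218. At 223963_s_at of IGF2BP2 the order was mock, hIMP1 Dmut and hIMP1 wt, at 67.1 ± 9.01, 70.4 ± 11.3 and 91.7 ± 8.76. IGF2BP3 ran from hIMP1 wt (1233 ± 64.5) to mock (1236 ± 8.48) to hIMP1 Dmut (1304 ± 60.4) at 203820_s_at, from mock (726 ± 69.0) to hIMP1 Dmut (766 ± 32.9) to hIMP1 wt (775 ± 50.7) at 203819_s_at, and from hIMP1 Dmut (172 ± 60.8) to mock (193 ± 24.1) to hIMP1 wt (217 ± 8.42) at 216493_s_at, so its 3 probe sets gave 3 orders. Neighbours whose arrays did not overlap were hIMP1 Dmut and mock at 218847_at, hIMP1 Dmut and hIMP1 wt at 223963_s_at, mock and hIMP1 Dmut at 203820_s_at, and mock and hIMP1 wt at 216493_s_at, and no neighbours differed in the test. Without a filter the 10 dim probe sets entered the fit, and 0 passed in any of these 3 comparisons (limma, adjusted p = 1 for each; 0 with an unadjusted p under 0.05). The largest of their changes was 0.72 at 1559891_at of HMGA2 for hIMP1 Dmut against hIMP1 wt, where the intensities ran from 4.46 to 30.1.

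**Figure D3:**
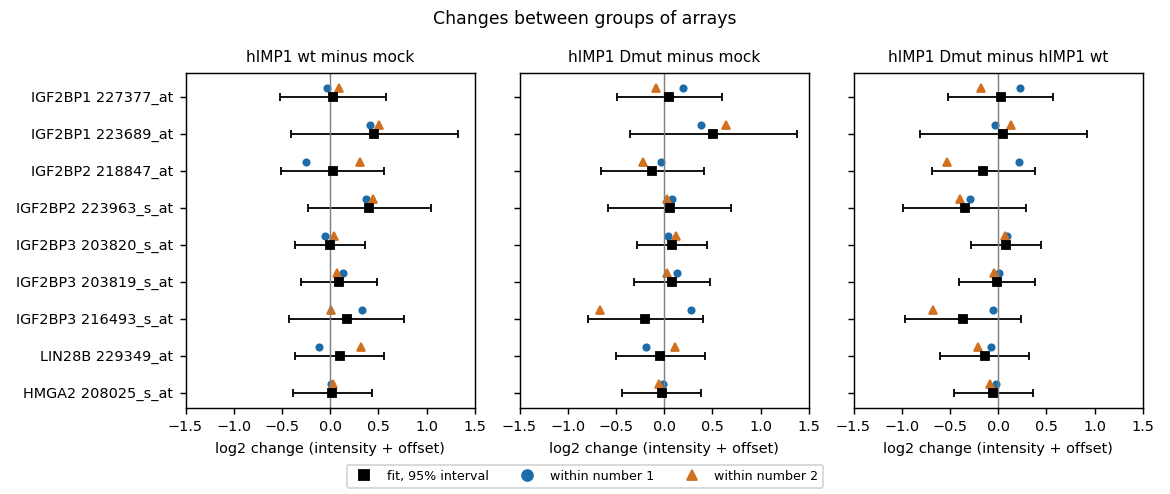
Log2 changes (intensity plus offset) of the 9 probe sets in the 3 comparisons; squares are the fit with 95% intervals, circles the change within the arrays of number 1 and triangles that within number 2. All 27 intervals come from the fit that leaves the array numbers out, and all take in 0. The widest are those of 223689_at of IGF2BP1 (-0.41 to 1.32 for hIMP1 wt against mock). Its unadjusted p against mock with the array number as a block was 0.0323 for hIMP1 wt and 0.0194 for hIMP1 Dmut (limma). Intervals of that blocked fit are not shown.

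The arrays of number 2 were also compared with those of number 1, in a fit with the group as a covariate, to see how these genes vary within groups. IGF2BP1 at 223689_at was lower on number 2 in 3 of 3 groups, by -0.95 within mock, -0.85 within hIMP1 wt and -0.69 within hIMP1 Dmut. The fitted log2 change was -0.83 ± 0.16 (SE), or 1.77-fold lower (limma, adjusted p = 0.0143). It was the only 1 of the 9 called, against 5.71% of all tested probe sets, so the count by itself says nothing particular about these genes. With an unadjusted p under 0.05 there were 3 of 9, against 22.3%, and 7 of 9 had the same direction in all 3 groups, against 43.4% of all.

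The call at 223689_at was lost without mock replicate 1 (limma, adjusted p = 0.0568), mock replicate 2 (0.053), hIMP1 wt replicate 1 (0.0733) or hIMP1 wt replicate 2 (0.0729), and when the prior had no intensity trend (0.165), while the change lay between -0.90 and -0.77 with each array left out. Without hIMP1 Dmut replicate 1 or replicate 2, which takes that whole group out of this comparison, 4 of the 9 were called, with 5472 and 5455 of all tested, in place of 1 and 1558. The 4 were both IGF2BP1 probe sets, 218847_at of IGF2BP2 (0.44) and LIN28B (-0.31).

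The brighter IGF2BP1 probe set went the other way, by 0.34 ± 0.14 at 227377_at (adjusted p = 0.177), positive in 3 of 3 groups at 0.40, 0.51 and 0.11. Set against each other within an array, a comparison chosen after the values were seen, 223689_at over 227377_at was 0.816, 1.12 and 0.931 on the number 1 arrays of mock, hIMP1 wt and hIMP1 Dmut, and 0.304, 0.418 and 0.523 on the number 2 arrays. By geometric means the ratio was 2.34-fold lower on number 2, a description only, since the pair was chosen for its opposite directions. An exact two-sided permutation test of the ratio gave p = 0.1, the smallest possible with 3 arrays of each number, so it decides nothing. The ratio serves to compare arrays, not the levels of the 2 probe sets. On the control probe sets, 3' signal over 5' signal for ACTB was 1.44 to 1.52 on number 1 and 1.57 to 1.67 on number 2, and for GAPDH 1.03 to 1.16 and 1.13 to 1.17; their part in this difference was not tested.

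LIN28B was lower on number 2, by -0.28 ± 0.12 (limma, adjusted p = 0.186), at -0.52, -0.09 and -0.23 within mock, hIMP1 wt and hIMP1 Dmut. HMGA2 at 208025_s_at had a change of 0.23 ± 0.11 (adjusted p = 0.233), nearly the same in the 3 groups at 0.23, 0.26 and 0.20. IGF2BP3 had 0.07 ± 0.11 at 203820_s_at, 0.14 ± 0.11 at 203819_s_at and -0.18 ± 0.18 at 216493_s_at, where the changes within mock, hIMP1 wt and hIMP1 Dmut were 0.24, -0.08 and -0.70. For IGF2BP2 the 2 probe sets had opposite signs, 0.29 ± 0.15 at 218847_at and -0.24 ± 0.21 at 223963_s_at, and neither passed. Without a filter the dim IGF2BP1 probe set 241574_s_at had a change of -1.42 ± 0.43 (adjusted p = 0.157).

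**Figure D4:**
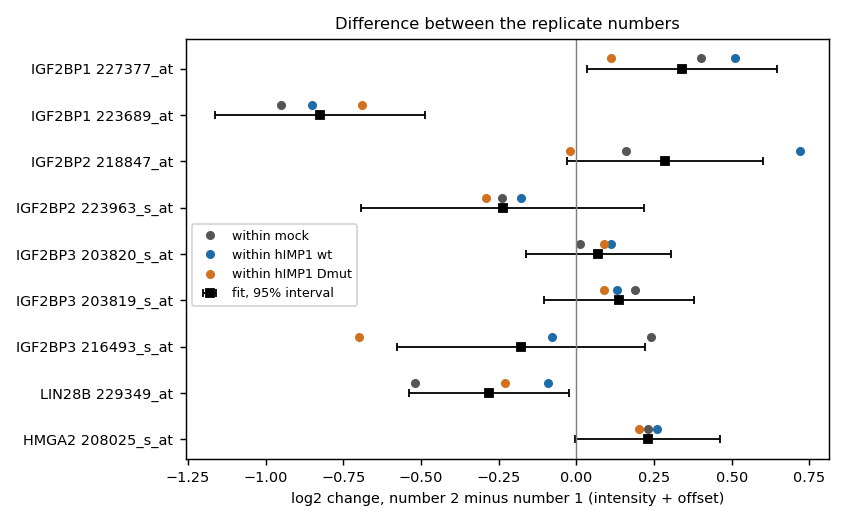
Log2 change (intensity plus offset) of number 2 against number 1 for the 9 probe sets; squares are the fit with 95% intervals and dots the change within each group. The 2 IGF2BP1 probe sets lie on opposite sides of 0 (0.34 and -0.83), and the dots of HMGA2 lie between 0.20 and 0.26.

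Genes around the let-7 circuit were read from lists of general knowledge, with the brightest tested probe set for each gene. Of 12269 genes tested in this way 1 was called for hIMP1 wt against mock, 1 for hIMP1 Dmut against mock and 0 for hIMP1 Dmut against hIMP1 wt, and none of them was in these lists. The list of let-7 and LIN28 processing held 15 genes. Of these 14 were on the platform and 12 were measured, meaning that they had a tested probe set. With hIMP1 wt 8 were higher and 4 lower, with a median log2 change of 0.03, against -0.015 over all genes, of which 46.5% were higher. With hIMP1 Dmut the counts were 4 and 8, at a median of -0.10 against -0.006 over all genes, of which 48.7% were higher. The 2 smallest p-values belonged to AGO3, an Argonaute protein (0.25 ± 0.38), and DICER1, the enzyme that cuts microRNA precursors (0.08 ± 0.17), with hIMP1 wt, and to DROSHA, the nuclear enzyme of the same path (-0.21 ± 0.17), and DICER1 (0.20 ± 0.17) with hIMP1 Dmut.

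Among other let-7 targets 13 of 16 genes were on the platform and 10 were measured. Of the 10, 5 were higher and 5 lower with hIMP1 wt (median 0.002), and 6 higher and 4 lower with hIMP1 Dmut (median 0.04). CCND2, a cyclin of the early cell cycle, had 0.23 ± 0.17 and NR6A1, a nuclear receptor, -0.22 ± 0.42 with hIMP1 wt; CDC34, a ubiquitin-conjugating enzyme, had -0.26 ± 0.20 and ARID3B, a DNA-binding protein, 0.48 ± 0.39 with hIMP1 Dmut. Of the 9 relatives of HMGA2 in the high mobility group families, 3 were higher and 6 lower in both of these comparisons (medians -0.02 and -0.11). HMGB1 had -0.12 ± 0.20 and HMGN5 0.17 ± 0.28 with hIMP1 wt, and HMGB3 -0.23 ± 0.17 and HMGB1 -0.25 ± 0.20 with hIMP1 Dmut. None of these changes passed the test.

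Of 11 fetal growth and oncofetal genes 9 were on the platform and only 4 were measured. PLAG1, a transcription factor of fetal growth, went from a mean of 109 with mock to 121 with hIMP1 wt and 160.0 with hIMP1 Dmut, with log2 changes of 0.15 ± 0.26 and 0.51 ± 0.26 (limma, adjusted p = 1 for both), and PEG10, an imprinted gene derived from a retrotransposon, had 0.10 ± 0.19 with hIMP1 wt, while CDKN1C, an imprinted inhibitor of the cell cycle, had -0.33 ± 0.51 with hIMP1 Dmut. IMP proteins are also known as readers of m6A, a methyl mark on mRNA. Of 16 genes that write, erase or read that mark 14 were measured, with 6 higher and 8 lower for hIMP1 wt (median -0.04) and 10 higher and 4 lower for hIMP1 Dmut (median 0.06). YTHDC1, a nuclear reader, had 0.22 ± 0.20 and WTAP, a writer subunit, -0.19 ± 0.17 with hIMP1 wt, and METTL14 and METTL3, the core of the writer, had 0.24 ± 0.22 and -0.22 ± 0.21 with hIMP1 Dmut.

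Between hIMP1 Dmut and hIMP1 wt the list medians were -0.12 for let-7 processing, 0.08 for let-7 targets, -0.05 for the high mobility group genes, -0.12 for the fetal growth genes and 0 for the m6A genes, against 0.010 over all genes. The 2 smallest p-values of each list belonged to AGO4 (-0.25 ± 0.22) and TARBP2, a partner of DICER1 (-0.22 ± 0.21), to CDC34 (-0.30 ± 0.20) and PLAGL2 (0.27 ± 0.25), to HMGB3 (-0.21 ± 0.17) and HMGN5 (-0.29 ± 0.28), to PLAG1 (0.37 ± 0.26) and GPC3, an oncofetal cell surface proteoglycan (-0.29 ± 0.37), and to CBLL1 (0.34 ± 0.19) and WTAP (0.31 ± 0.17). No gene of the 5 lists passed here either, at an adjusted p of 1 for each of those named.

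Between the replicate numbers 6 genes of these lists passed (limma), where 760 of all 12269 genes did. The lists, in the order above, held 12, 10, 9, 4 and 14 measured genes, with DICER1 in both the first and the second. MYC, a let-7 target and a classical IMP1-bound mRNA, was higher on number 2 by 0.64 ± 0.12 (adjusted p = 0.0144), in 3 of 3 groups, and CDC25A, a cell cycle phosphatase, was lower by -0.48 ± 0.12 (0.0414). HMGN3 rose by 0.52 ± 0.12 (0.0323) and GPC3 by 0.78 ± 0.14 (0.0135). The m6A reader YTHDF3 was lower, at -0.48 ± 0.11 (0.0293), and the writer subunit ZC3H13 higher, at 0.46 ± 0.12 (0.044). The count of 6 is not a test of the lists. These calls depended on the fit: of the 6, 0 were called when the prior had no intensity trend, 2 with no filter and 2 with median scaling. Without mock replicate 1 or mock replicate 2 only GPC3 was called, without hIMP1 wt replicate 1 or hIMP1 wt replicate 2 GPC3 and MYC, and without either hIMP1 Dmut array all 6.

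The genes whose log2 values followed each member most closely over the 6 arrays were named as a description, with Pearson's r over 12264 other genes. For IGF2BP1 at 227377_at they were FEZ2, FHOD3 and CD47 (r = 0.992 for each), for IGF2BP2 at 218847_at SF3B6, ZNF471 and STX10 (0.995, 0.99 and 0.987), and for IGF2BP3 at 203820_s_at CC2D2A, CACNA2D1 and NGLY1 (0.994, 0.988 and 0.984). LIN28B was followed by UPP1, DONSON and PLEKHO1 (0.991, 0.99 and 0.988), and HMGA2 by CISD2, NPRL2 and TPI1 (0.998, 0.997 and 0.995). At a lower cut, r exceeded 0.9 for 467 genes with IGF2BP1 (3.81%), 208 with IGF2BP2 (1.7%) and 84 with IGF2BP3 (0.685%). For LIN28B there were 137 (1.12%) and for HMGA2 783 (6.38%). With only 6 arrays, a high r does not show a link between genes. The arrays share the difference between the numbers. No gene was among the 3 closest of more than 1 member.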

How the data were processed

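The authors deposited linear intensities, 1 per probe set and array; which software and scaling made them is not given in the sources used here. The trimmed mean (2% off each end) was 150.02 on every array, so each appears scaled by 1 factor. After 62 control probe sets were removed, the analysis used log2(intensity + 9.05), the offset being the pooled lower quartile, so fold changes of dim probe sets are understated. Probe sets with a mean at or above 5.19 were kept (27307 of 54613). Genes came from the platform annotation, in which 41091 probe sets have 1 symbol, 1801 several and 11721 none; none was named from several.

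All 6 arrays entered a limma 3.58.1 fit (R 4.3.3, lmFit, eBayes with intensity trend) with a coefficient per group (3 residual degrees of freedom, 7.03 from the prior), two-sided, adjusted over all kept probe sets at 0.05. The number comparison added the replicate number (2 and 10.5). The fit was tested on simulated data with independent noise and with spreads shuffled over probe sets. Those data lacked the broad difference between the numbers seen here and any link of spread to intensity. They therefore do not show how the fit behaves with either. Groups came from sample descriptions and numbers from titles. Members and lists were chosen with earlier results of these data known. From each list every called gene was named, otherwise the 2 of smallest p per construct comparison, and for each member the 3 genes of highest correlation. The alternatives were other scalings, offsets, filters, priors and subsets of arrays, the replicate block and gene means. Precision is limited by the small number of arrays.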

Additional observations from a re-analysis of the deposited data

How the results depend on the processing

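In the 3 construct comparisons 0 probe sets of the 5 genes were called under every alternative run, with a lowest adjusted p of 0.999 (limma). Log2 changes changed sign in 13 of 157 alternative values for hIMP1 wt against mock, 11 of 157 for hIMP1 Dmut against mock and 15 of 157 for hIMP1 Dmut against hIMP1 wt. Of these, 11, 9 and 9 came with an array left out, which leaves the compared groups with unequal array numbers. With the replicate block, the change of 223689_at of IGF2BP1 was 0.46 for hIMP1 wt (unadjusted p = 0.0323 in the limma fit) and 0.51 for hIMP1 Dmut (0.0194), with an adjusted p of 1 for both, so that 1 of 9 had an unadjusted p under 0.05 in each, in place of 0; 2, 2 and 0 probe sets of all tested were called, as without it. The labels give the arrays a number in common and nothing more, and with 2 numbers the pairing was not taken as given. In the data each of 6 was most like an array of its own number, and deviations from group means correlated between groups at 0.20 to 0.464.

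For hIMP1 wt against mock, IGF2BP3 at 203820_s_at turned to 0.040 under median scaling and 0.087 as the mean of its probe sets. For hIMP1 Dmut against mock, IGF2BP1 at 227377_at turned to -0.001 under median scaling and IGF2BP3 to -0.014 as a mean. For hIMP1 Dmut against hIMP1 wt, 223689_at was -0.002 under quantile scaling, 227377_at, 223689_at and 203820_s_at were -0.075, -0.047 and -0.019 under median scaling, 203819_s_at was 0.009 under cyclic loess, and IGF2BP3 was -0.10 as a mean. Median scaling moved the median change of all probe sets there by -0.10. IGF2BP1 as a mean was -0.24 between the numbers, since its 2 probe sets oppose each other. With each array left out in turn, the hIMP1 wt changes ran from -0.23 to 0.29 at 227377_at, -0.015 to 0.93 at 223689_at, -0.33 to 0.39 at 218847_at, -0.057 to 0.049 at 203820_s_at, -0.000 to 0.19 at 203819_s_at, -0.16 to 0.36 for LIN28B and -0.11 to 0.15 for HMGA2. The hIMP1 Dmut changes ran from -0.15 to 0.25 at 227377_at, 0.037 to 0.98 at 223689_at, -0.087 to 0.20 at 223963_s_at, -0.017 to 0.18 at 203819_s_at, -0.55 to 0.15 at 216493_s_at, -0.30 to 0.22 for LIN28B and -0.15 to 0.089 for HMGA2. Differences between the constructs ran from -0.23 to 0.28 at 227377_at, -0.37 to 0.48 at 223689_at, -0.52 to 0.21 at 218847_at, -0.083 to 0.049 at 203819_s_at, -0.72 to -0.017 at 216493_s_at and -0.18 to 0.078 for HMGA2, and those between the numbers from -0.39 to 0.084 at 216493_s_at. The causes were not tested.

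Over all probe sets, the count of 2 for hIMP1 wt against mock became 1 with an offset at the 10th percentile, 1 above the 75th percentile, 0 without an intensity trend and 0 with only the 4 arrays compared, and 0 to 3 with an array left out. The count of 2 for hIMP1 Dmut became 1 above the 75th percentile, 0 without a trend, and 0 to 2 with an array left out. Between the numbers 1558 became 558 with no filter, 0 without a trend and 291 to 5472 with an array left out, and the members called went from 1 to 0 without a trend and to 0 to 4 with an array left out. The ratio of the 2 IGF2BP1 probe sets, 0.428, lay between 0.376 and 0.494 with each array left out and at 0.448, 0.447 and 0.445 with quantile scaling, cyclic loess and the offset, alternatives chosen after seeing the data, as were those for the 6 list genes called between the numbers.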
